A study of Mus musculus with 10 samples.

Results

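The genes of the secondary (specific) and tertiary (gelatinase) granules of neutrophils were examined in lineage-negative (Lin-) bone marrow cells. The set was given by name and not by a cutoff on a measured value: Ltf, Camp, Ngp, Lcn2, Chil3, Retnlg, S100a8, S100a9, Mmp8 and Mmp9, 10 of the 55359 genes in the table. All 10 had a mean of at least 0.1 FPKM (fragments per unit of gene length and of library depth) and were tested. There were 5 libraries from Dhx9f/f mice, called WT, and 5 from Dhx9f/f;MX1 mice, called cKO. The set was chosen with earlier results of these data known, and the cKO libraries were already known to be uneven. The study's methods count individual mice as replicates, in a general statement that does not name these libraries. Both genotypes carry the floxed Dhx9 alleles. The cKO mice also carry Cre recombinase under the Mx1 promoter, which interferon switches on in many cell types, and the Cre is induced by injecting poly(I:C), a double-stranded RNA that provokes interferon. The genotype label of the cKO samples reads knock down, and neither the ages nor whether the sequenced WT mice received poly(I:C) are given in the sources used here. Lin- cells were what a magnetic kit left after removing cells with surface markers of mature lineages. The markers are those of mature blood cells, such as Ly6g and Itgam (CD11b) for myeloid cells.

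Neutrophils fill their granules in a fixed order as they mature in the bone marrow. Promyelocytes make the primary (azurophil) granules with Mpo and Elane, myelocytes and metamyelocytes the secondary granules with lactoferrin (Ltf) and cathelicidin (Camp), and later cells the tertiary granules with gelatinase (Mmp9). C/EBP-epsilon, the product of Cebpe, is needed for the secondary granules. S100a8 and S100a9 form calprotectin, which is held in the cytosol and not in granules, but their transcripts are made over the same late stages. Chil3 is also made by monocytes and macrophages. In bulk RNA, fewer cells of a type and less RNA per cell cannot be told apart.

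Promoter sequences are shown for 5 members whose levels the results turn on, so that C/EBP-type letters can be seen next to the values. They are the bases upstream of the RefSeq gene start that overlap no annotated exon, given 5′ to 3′ on the gene's strand in GRCm39. Capitals mark the letters TTNNGNAA or their reverse complement TTNCNNAA, a short C/EBP-type motif. All stretches shown hold such letters. Of those not shown, that of Chil3 holds them and those of Camp, Lcn2 and Retnlg do not. The stretches are Ltf (chr9:110848110-110848338, plus strand), Ngp (chr9:110248626-110248814, plus strand), S100a8 (chr3:90576128-90576284, plus strand), S100a9 (chr3:90603072-90603278, minus strand) and Mmp8 (chr9:7558180-7558371, plus strand).
Ltf: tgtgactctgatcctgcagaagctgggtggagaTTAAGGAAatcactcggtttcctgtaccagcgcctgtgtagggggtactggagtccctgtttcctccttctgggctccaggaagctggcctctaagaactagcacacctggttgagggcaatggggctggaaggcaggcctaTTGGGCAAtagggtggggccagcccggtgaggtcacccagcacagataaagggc
Ngp: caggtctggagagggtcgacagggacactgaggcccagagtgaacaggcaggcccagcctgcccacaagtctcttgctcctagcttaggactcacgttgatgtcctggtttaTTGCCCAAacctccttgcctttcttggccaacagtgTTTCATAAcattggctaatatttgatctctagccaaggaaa
S100a8: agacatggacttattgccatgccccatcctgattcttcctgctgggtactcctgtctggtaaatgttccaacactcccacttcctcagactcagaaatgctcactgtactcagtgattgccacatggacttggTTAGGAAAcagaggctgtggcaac
S100a9: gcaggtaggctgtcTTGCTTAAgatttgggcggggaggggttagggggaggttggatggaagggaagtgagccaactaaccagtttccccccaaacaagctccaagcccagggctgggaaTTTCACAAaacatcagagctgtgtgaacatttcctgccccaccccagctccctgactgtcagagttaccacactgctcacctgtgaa
Mmp8: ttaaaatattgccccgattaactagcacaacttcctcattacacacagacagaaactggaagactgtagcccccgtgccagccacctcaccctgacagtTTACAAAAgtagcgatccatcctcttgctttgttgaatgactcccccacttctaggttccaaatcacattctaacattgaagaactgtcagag
RefSeq's promoter table, in its GRCm39 sequences, held 9 of the 10 members, all but Mmp9. Within the full 250 bases upstream, the C/EBP letters occurred in 8 of these 9, Camp being the exception, and in 36.8% of 32851 promoters of that length. Letters for PU.1 (GAGGAA, either strand) occurred in 4 of 9, those of Lcn2, S100a8, Mmp8 and Ltf, against 23.3% of promoters, and letters for RUNX factors (TGTGGT, either strand) in S100a9 alone, against 14% of promoters. None of the 3 motifs holds another, though matches can overlap, and a match describes letters, not a bound site. S100a8 and S100a9 lie 21.8 kb apart on chromosome 3 with no annotated gene between them. Camp, Ngp and Ltf are spread over a stretch of chromosome 9, with 570 kb and 30 annotated genes between Camp and Ngp and 596 kb and 34 genes between Ngp and Ltf.

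The targeted gene goes against the labels. Dhx9 was at 130.82, 148.8, 131.25, 156.49 and 131.98 FPKM in the cKO-labelled libraries 1 to 5 and at 68.96, 72.42, 72.18, 69.55 and 65.43 FPKM in WT 1 to 5, so it was higher in the mice meant to lose it, and all directions given here rest on the labels. The libraries also differed in Xist, the transcript of the inactive X chromosome, which was at 0.07 and 0.04 FPKM in WT 1 and WT 2, at 99.19 to 127.76 in WT 3 to 5 and at most 0.09 in the cKO-labelled libraries. Depth was even, at 15041500 to 18711100 fragments in WT and 13837000 to 17189800 in the cKO-labelled libraries, as read from the steps in the FPKM of short genes. A gene of 1 kb with 3 fragments, taken as the floor, would be at 0.160 to 0.217 FPKM.

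None of the 10 granule genes passed the test between the groups, and the groups overlapped for each of them. The cKO-labelled libraries differed among themselves instead. In library cKO 1 most members were several times above WT, and in library cKO 4 all were below it. For every member the WT libraries lay closer together than the cKO-labelled ones. Of the 10 log2 fold changes (labelled cKO minus WT), 5 were above 0 and 5 below, with a median of 0.18, beside -0.11 over all 18742 genes tested. The test was limma on log2(FPKM + 0.1), and a call needed both a change of 2-fold or more and a Benjamini-Hochberg adjusted p under 0.05. It called 0 members higher, beside 4.6% of all genes, and 0 lower, beside 16.8% of all genes (21.4% in either direction). At an unadjusted p under 0.05 it counted 1 member, Mmp8, and 52.3% of all genes. All 5 libraries of one label lay above all 5 of the other for 0 of the 10 members and for 32.2% of all genes.

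**Figure D1:**
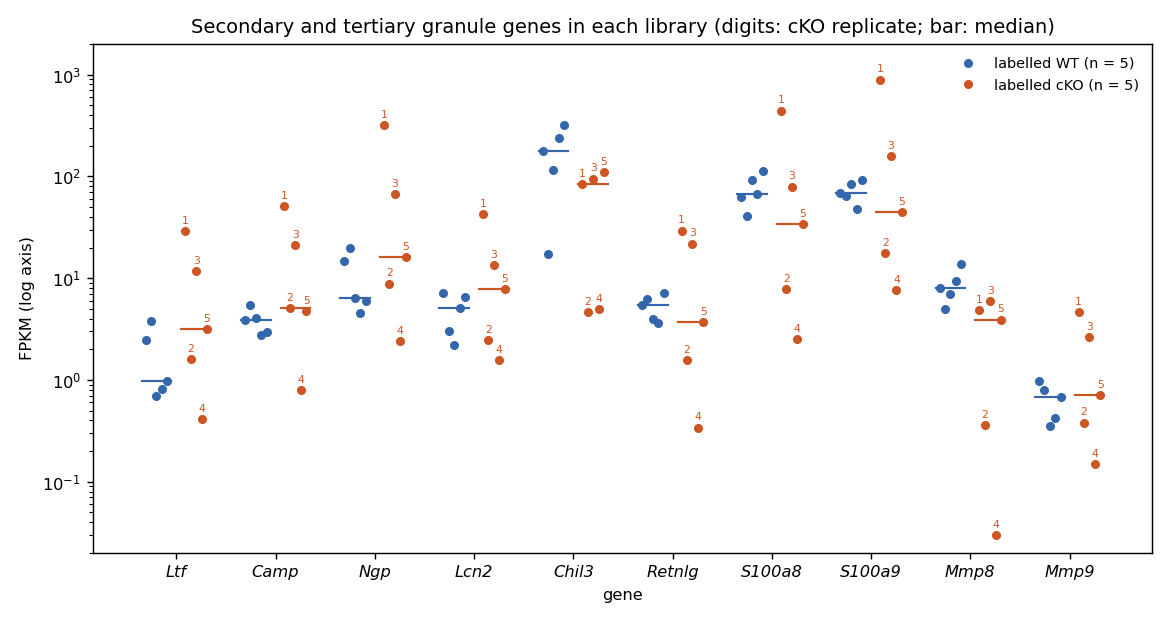
FPKM (log axis) of the 10 granule genes in each of the 5 libraries labelled WT (blue) and the 5 labelled cKO (orange), with digits for the cKO replicate and bars for the median. The orange points spread far above and below the blue ones in most genes, with library 1 at the top for 8 genes and library 4 at the bottom for 9.

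Ltf (ENSMUSG00000032496, chromosome 9 of GRCm39 from 110848339 to 110871835, plus strand) encodes lactoferrin, the iron-binding protein of secondary granules. It was at 2.47, 3.79, 0.69, 0.82 and 0.98 FPKM in WT 1 to 5 and at 29.05, 1.6, 11.81, 0.41 and 3.15 FPKM in the cKO-labelled libraries 1 to 5. Libraries cKO 1 and cKO 3 were above every WT library, cKO 4 was below every one, and the highest of the label was 70.9 times the lowest, against 5.49 times within WT. The means were 9.20 ± 12.0 and 1.75 ± 1.35 FPKM (SD, n = 5 each), and the log2 fold change was 1.39 with a standard error of 0.972 (adjusted p = 0.271, limma). WT 1 and WT 2, the WT libraries with Xist at most at 0.07 FPKM, were the highest of the WT group, and with a covariate for Xist the log2 fold change was 0.33. Since Xist was near 0 in every cKO-labelled library, only these WT libraries match them in it, and its part in the value was not tested further.

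Camp (ENSMUSG00000038357, chromosome 9 from 109676442 to 109678685, minus strand), the cathelicidin antimicrobial peptide, was at 3.88, 5.49, 4.1, 2.75 and 2.98 FPKM in WT and at 51.19, 5.07, 21.04, 0.8 and 4.72 FPKM in the cKO-labelled libraries. Of the latter, 2 were above the WT range, 1 was below it and 2 were within it. Its log2 fold change of 0.98 (standard error 0.876) had an adjusted p of 0.396 by limma. Ngp (ENSMUSG00000032484, chromosome 9 from 110248815 to 110252086, plus strand), neutrophilic granule protein of the cystatin-like family, was more abundant and spread as widely. It was at 14.74, 19.69, 6.4, 4.59 and 5.98 FPKM in WT and at 317.58, 8.85, 66.44, 2.41 and 16.04 FPKM in the cKO-labelled libraries. Library cKO 1 thus held 131.8 times the level of library cKO 4, against a span of 4.29 times within WT, and the log2 fold change of 1.43 (standard error 1.09) had an adjusted p of 0.318 by limma. As with Ltf, WT 1 and WT 2 were above the other WT libraries, which 9.56% of all genes also showed, and with the Xist covariate the log2 fold change of Ngp was 0.47.

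Lcn2 (ENSMUSG00000026822, chromosome 2 from 32274645 to 32278264, minus strand) encodes lipocalin-2, which binds bacterial siderophores. Its levels were 7.07, 3.01, 2.22, 5.11 and 6.51 FPKM in WT and 42.56, 2.44, 13.37, 1.56 and 7.81 FPKM in the cKO-labelled libraries. Libraries cKO 1, 3 and 5 were above the WT range and cKO 4 below it, with a log2 fold change of 0.69 ± 0.777 (SE, adjusted p = 0.506, limma). Retnlg (ENSMUSG00000022651, chromosome 16 from 48692547 to 48694862, plus strand), a resistin-like secreted protein of granulocytes, was at 5.47, 6.3, 3.93, 3.61 and 7.18 FPKM in WT and at 29.37, 1.57, 21.85, 0.34 and 3.71 FPKM in the cKO-labelled libraries. High and low libraries balanced, which gave a log2 fold change of -0.22 ± 0.996 (SE, adjusted p = 0.877, limma) although cKO 1 was at 86.4 times the level of cKO 4. The related genes Retnla and Retnlb were at most at 0.21 and 0.09 FPKM in any library.

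Chil3 (ENSMUSG00000040809, chromosome 3 from 106054870 to 106074880, minus strand), a chitinase-like lectin also called Ym1, did not follow the other members. In WT it was at 176.11, 17.33, 114.82, 239.98 and 320.37 FPKM, which made it the most abundant member per length in 4 of the 5 libraries. In the cKO-labelled libraries it was at 83.63, 4.6, 95.22, 4.92 and 109.5 FPKM, none of them above the WT range and 2 below it. The WT group was itself uneven here, with WT 2 far under the others, and the log2 fold change of -2.07 (standard error 1.11) had an adjusted p of 0.154 by limma. With the Xist covariate the log2 fold change was -0.93. Chil4, its closest relative, was listed at 0 in all 10 libraries. Chil3 was the member farthest from the mean profile of the set, with libraries ranked 5, 3, 1, 4 and 2 from high to low. The monocyte markers Csf1r and Irf8 had the same pair of libraries on top, with Csf1r at 0.78, 0.38, 2.79, 0.09 and 6.09 FPKM and Irf8 at 0.38, 0.42, 5.41, 0.09 and 10.16 FPKM in cKO 1 to 5. The match is partial, since in cKO 1 both markers were low while Chil3 was close to its level in cKO 3.

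The calprotectin genes were the members with the highest level in any library. S100a8 (ENSMUSG00000056054, chromosome 3 from 90567118 to 90578128, plus strand) was at 62.62, 40.49, 92.46, 67.62 and 113.81 FPKM in WT and at 442.9, 7.8, 79.19, 2.51 and 34.21 FPKM in the cKO-labelled libraries. S100a9 (ENSMUSG00000056071, chromosome 3 from 90599931 to 90603071, minus strand) was at 69.23, 63.54, 83.77, 48.33 and 93.11 FPKM in WT and at 894.75, 17.61, 157.68, 7.57 and 44.16 FPKM in the cKO-labelled libraries. For both genes cKO 1 was above the WT range and cKO 2, 4 and 5 were below it, while cKO 3 was above it for S100a9 and within it for S100a8. The log2 fold changes were -1.24 (standard error 1.13, adjusted p = 0.404, limma) for S100a8 and -0.20 (standard error 1.05, adjusted p = 0.897, limma) for S100a9. The sign of the latter turned to 0.25 without library cKO 2 and to 0.55 without library cKO 4, and that of Retnlg to 0.14 and 0.62 without the same libraries. S100a8 was lower in WT 1 and WT 2 than in every other WT library, as were 5.85% of all genes. With the Xist covariate the log2 fold change of S100a8 was -0.74.

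The matrix metalloproteinase genes had fold changes of opposite sign. Mmp8 (ENSMUSG00000005800, chromosome 9 from 7558457 to 7568487, plus strand), the neutrophil collagenase of secondary granules, was at 8.02, 4.97, 6.91, 9.39 and 13.9 FPKM in WT and at 4.89, 0.36, 5.91, 0.03 and 3.91 FPKM in the cKO-labelled libraries. All but cKO 3 were below the WT range, and the level in cKO 4 amounts to about 1 fragment. With a log2 fold change of -2.48 (standard error 0.977), Mmp8 came nearest to a call (adjusted p = 0.0598, limma), and it was called lower when library cKO 1, cKO 3 or cKO 5 was left out (adjusted p = 0.0358, 0.0324 and 0.0477, limma). Without library cKO 4 the log2 fold change was -1.60 (adjusted p = 0.0897, limma), and without cKO 2 or WT 5 the adjusted p was 0.136 and 0.118 (limma). Mmp9 (ENSMUSG00000017737, chromosome 2 from 164780439 to 164797771, plus strand), the gelatinase that defines tertiary granules, was at 0.98, 0.8, 0.35, 0.42 and 0.68 FPKM in WT and at 4.63, 0.38, 2.62, 0.15 and 0.71 FPKM in the cKO-labelled libraries. Its libraries ranked as those of Ltf did, with cKO 1 and cKO 3 above the WT range and cKO 4 below it, with a log2 fold change of 0.56 ± 0.723 (SE, adjusted p = 0.559, limma). Like Ltf and Ngp, Mmp9 was highest in WT 1 and WT 2 among the WT libraries, and with the Xist covariate its log2 fold change was 0.085. S100a8 went the other way and was lowest in WT 1 and WT 2.

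Single libraries set the size of most of these fold changes. Without library cKO 1 those of Ltf, Camp, Ngp, Lcn2 and Mmp9 were 0.67, 0.29, 0.49, 0.04 and 0.02 on the log2 scale, and those of S100a8 and S100a9 were -2.21 and -1.16. Without library cKO 4 the first 5 were 2.13, 1.74, 2.24, 1.21 and 1.08, and that of S100a8 was -0.36. None of these genes was called in either case.

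**Figure D2:**
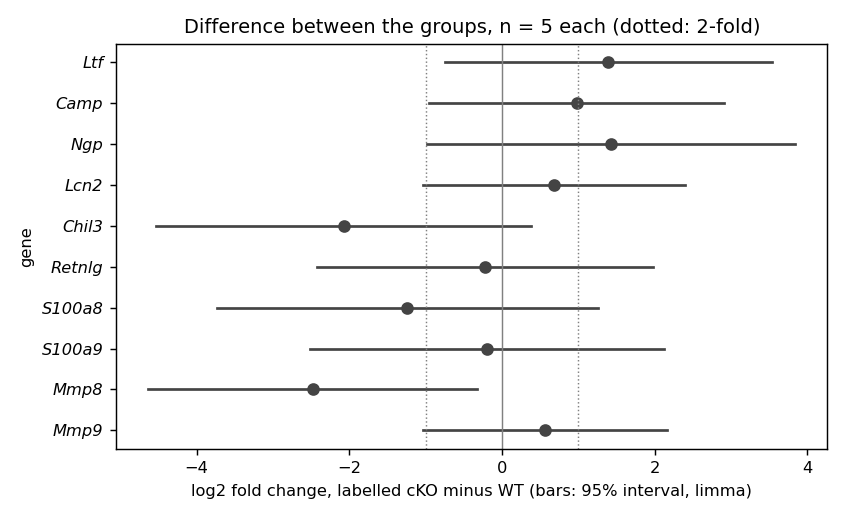
Log2 fold change of each granule gene, labelled cKO minus WT, on the log2(FPKM + 0.1) scale (n = 5 each), with bars for the 95% interval from limma and dotted lines at a 2-fold change. The intervals of 9 genes contain 0, and that of Mmp8 runs from -4.63 to -0.32.

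All members were spread more widely over the cKO-labelled libraries than over WT. The SD of log2(FPKM + 0.1) over these 5 libraries was 1.75 to 2.88 among the members, with a median of 2.41, against a median of 0.56 (0.37 to 1.66) over the WT libraries, and it was the larger one for 10 of 10 members. Over all genes tested, the median SD was 0.35 in the cKO-labelled libraries and 0.24 in WT, and it was larger in the cKO-labelled libraries for 68.8% of genes. An SD as large as the lowest among the members was found in 2.89% of all genes, and one as large as their median in 0.454%. A wide spread was not particular to the members. Over the cKO-labelled libraries the SD of the 8 monocyte markers ran from 1.33 (Cx3cr1) to 2.48 (Irf8). That of the 8 primary granule genes ran from 0.81 (Ctsc) to 1.63 (Prtn3). These shares are descriptions, since genes expressed in the same cells are not independent.

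Most members also shared 1 order of the libraries. For 7 of the 10 (Ltf, Ngp, Lcn2, Retnlg, S100a8, S100a9 and Mmp9) the cKO-labelled libraries ranked 1, 3, 5, 2 and 4 from high to low, an order that 2.09% of all genes had. Camp differed from it only in that cKO 2 was just above cKO 5, and Mmp8 in that cKO 3 was just above cKO 1. Library cKO 4 was the lowest for 9 members, as for 22.9% of all genes, and cKO 2 and 4 were the lowest pair for 9, as for 17.8%. The shared order was picked as the most frequent among these same members. Genes of the same cells are also not independent, so these shares are descriptions and not tests. Averaged over the 10 members, library cKO 1 stood 2.67 above the WT mean on the log2 scale and cKO 3 stood 1.45 above it. Library cKO 5 was level with WT on this average, and cKO 2 and cKO 4 were below it (-0.0039, -1.64 and -3.05).

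**Figure D3:**
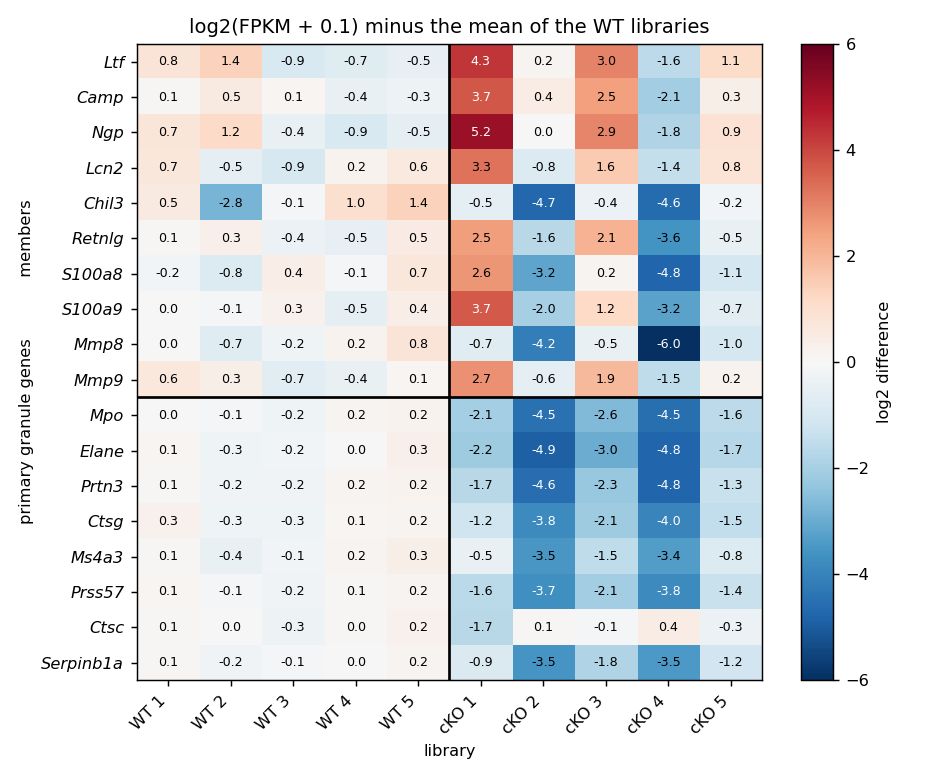
Log2(FPKM + 0.1) of the 10 granule genes (upper block) and of 8 primary granule genes (lower block) in each library, less the mean of the 5 WT libraries for that gene, with red above and blue below that mean. In the upper block the columns cKO 1 and cKO 3 are mostly red and cKO 2 and cKO 4 mostly blue, while in the lower block the 5 columns labelled cKO are blue apart from the row of Ctsc.

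Read library by library, cKO 1 had 8 members above the WT range, all but Chil3 and Mmp8, beside 28.5% of all genes. Library cKO 3 had 7 above it, beside 29.4%, and none below. Library cKO 4 had all 10 below, beside 41.0% of all genes, and cKO 2 had 5 below (Chil3, Retnlg, S100a8, S100a9 and Mmp8), beside 40.0%. Library cKO 5 was mixed, with Lcn2 above, beside 25.3% of all genes, and S100a8, S100a9 and Mmp8 below, beside 36.6%. The share of all FPKM taken by the 10 members was 0.116%, 0.0544%, 0.102%, 0.124% and 0.182% in WT 1 to 5 and 0.608%, 0.0159%, 0.152%, 0.00645% and 0.0724% in the cKO-labelled libraries. The difference of the group means, 0.055 percentage points, turned negative (-0.054) when library cKO 1 was left out. S100a8 and S100a9, whose products are cytosolic, made up 30.3% to 62.9% of the members' FPKM in WT. In the cKO-labelled libraries they made up 34.4% to 70.4%, the most in cKO 1. Library cKO 1 had the lowest depth of the 10, and the part of depth in these values was not tested.

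Ratios set members of 1 library against each other, and 3 were tested by a two-sided exact permutation test, with adjustment over the 3. They were taken as log2 ratios of FPKM + 0.1, which is per length. The ratio of Mmp8 to Mmp9 was 2.91, 2.49, 3.96, 4.19 and 4.17 in WT and 0.08, -0.06, 1.14, -0.94 and 2.31 in the cKO-labelled libraries, so every one of the latter was below every WT library. No share was worked out for ratios of other gene pairs. Separation of the labels is common here, at 32.2% of single genes. Divided by Mpo, 75.8% of all genes were higher in every cKO-labelled library than in every WT library. The means differed by -3.04 (standard error 0.661, n = 5 each), with an exact permutation p of 0.0079, the smallest that 5 against 5 can give, and an adjusted p of 0.0238. The value for library cKO 4 rests on about 1 fragment of Mmp8 and 8 of Mmp9, and when any 1 library was left out the difference was between -3.49 and -2.68. It was -2.03 at a pseudocount of 1 and -3.41 at one of 0.01, both with an adjusted p of 0.0238 by the exact permutation test.

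S100a8 and S100a9 encode partners of 1 complex, and their transcripts were near parity in WT. The log2 ratio of S100a8 to S100a9 was -0.14, -0.65, 0.14, 0.48 and 0.29 in WT and -1.01, -1.16, -0.99, -1.56 and -0.37 in the cKO-labelled libraries. WT 2 overlapped the lower group through library cKO 5, and the others were apart. The difference was -1.04 (standard error 0.275, n = 5 each, exact permutation p = 0.0159, adjusted p = 0.0238). Both called ratios lost their call among libraries with low Xist, where 2 WT libraries faced 5 and no p under 0.0952 can be reached. There the differences were -2.20 for Mmp8 to Mmp9 and -0.62 for S100a8 to S100a9. The ratio of Camp to Ngp, both of secondary granules, was -1.90, -1.82, -0.63, -0.72 and -0.98 in WT and -2.63, -0.79, -1.65, -1.48 and -1.74 in the cKO-labelled libraries, a difference of -0.45 (standard error 0.401, n = 5 each, exact permutation p = 0.333).

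**Figure D4:**
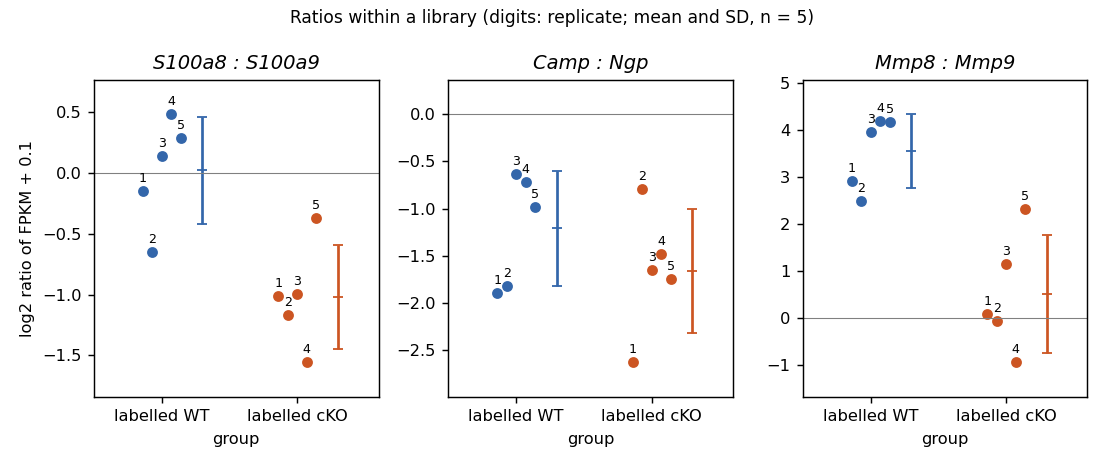
Log2 ratio of FPKM + 0.1 between 2 granule genes within each library, by label, with digits for the replicate and the mean with its SD (n = 5) beside the points. For Mmp8 to Mmp9 the points labelled cKO all lie below the WT points, for S100a8 to S100a9 they overlap in 1 library of each label, and for Camp to Ngp they overlap widely.

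Primary granule genes, which come before the members in neutrophil maturation, fell in the cKO-labelled libraries, with 7 of 8 called lower, 0 called higher and a median log2 fold change of -2.51. Mpo, for myeloperoxidase, was at 973.78 to 1345.98 FPKM in WT and at 277.33, 51.75, 186.27, 49.43 and 391.92 FPKM in the cKO-labelled libraries (log2 fold change -3.05, adjusted p = 0.00103, limma). The log2 fold changes of Elane, Prtn3 and Ctsg, for serine proteases, were -3.30, -2.92 and -2.52. Ctsc, for the cathepsin that activates these proteases, was not called (log2 fold change -0.31, adjusted p = 0.473, limma). Set beside the members, the summed FPKM of the 8 genes was 2745.26 to 3729.76 in WT and 983.82, 175.74, 593.09, 176.37 and 1125.26 in the cKO-labelled libraries. The 10 members summed to 0.104, 0.0600, 0.115, 0.110 and 0.152 of that in WT and to 1.93, 0.286, 0.801, 0.117 and 0.203 in the cKO-labelled libraries. Much of the members' sum came from S100a8 and S100a9, with 70.4% of it in library cKO 1. Divided by Mpo, 7 of the 10 members were higher in all 5 cKO-labelled libraries than in all WT libraries, but so were 75.8% of all genes, so this is not a result about the members.

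The other genes of secondary and tertiary granules, of their membranes and of their release were mostly called lower. Of 18 such genes, 17 were tested, with 0 called higher, 11 lower and a median log2 fold change of -2.08. Hp, for haptoglobin, was the most abundant. It was at 134.49, 72.66, 110.03, 145.4 and 171.14 FPKM in WT and at 49.76, 4.93, 36.16, 4.13 and 55.23 FPKM in the cKO-labelled libraries (log2 fold change -2.72, adjusted p = 0.0109, limma). Cyba and Cybb, for the subunits of the membrane cytochrome of the NADPH oxidase, fell by 1.11 and 3.52 on the log2 scale. Slpi, for a protease inhibitor of the granules, fell by 2.57, Cfp, for properdin, by 3.02, and Ltb4r1, for the leukotriene B4 receptor, by 2.08. Several of these genes are also expressed by monocytes.

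Of that list, 6 tested genes were not called, the most abundant of them Cd177. This surface protein of the secondary granule membrane was at 5.12, 2.36, 1.82, 3.01 and 3.42 FPKM in WT and at 19.79, 0.8, 3.16, 0.12 and 0.66 FPKM in the cKO-labelled libraries, so cKO 1 was above and cKO 2, 4 and 5 below the WT range (log2 fold change -0.96, adjusted p = 0.457, limma). The other 5 were Adam8, Fpr1, Fpr2, Mmp25 and Olfm4. All of these are low, with no library above 3.12 FPKM, and Ptx3 was too low to be tested.

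Transcription factors and the receptor of late granulopoiesis mostly fell, with 7 of 9 called lower, 1 higher and a median log2 fold change of -1.73. Cebpe was at 12.2 to 15.8 FPKM in WT and at 4.77, 0.98, 4.77, 0.76 and 6.93 FPKM in the cKO-labelled libraries (log2 fold change -2.35, adjusted p = 0.00493, limma), so all 5 lay below WT, including cKO 1 and cKO 3, in which most members were above it. Csf3r, for the G-CSF receptor, was at 18.91 to 26.01 FPKM in WT and at 4.32, 0.32, 1.97, 0.39 and 2.77 FPKM (log2 fold change -4.01, adjusted p = 4.08e-04, limma). Cebpa (log2 fold change -3.09), Spi1 (-1.73), Gfi1 (-2.12), Runx1 (-1.11) and Cebpd (-1.70) were also called lower. Klf5 rose by 2.32 on the log2 scale (adjusted p = 1.05e-04, limma), and Cebpb missed the fold limit at -0.92. Within the cKO-labelled libraries, Cebpe and Csf3r were lowest in cKO 2 and 4, as most members were, and the highest was cKO 5 for Cebpe and cKO 1 for Csf3r.

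Markers of later neutrophils were divided. Of 14 genes, 8 were called lower and 1, Il1b, higher, with a median log2 fold change of -1.78. Those called lower included Cxcr2, for a chemokine receptor of mature neutrophils (log2 fold change -2.99), and the chemokine gene Ccl6 (-2.40). Ifitm6 and Wfdc21 were highest in library cKO 1, as most members were. Ifitm6 was at 8.73 to 19.1 FPKM in WT and at 57.8, 0.96, 6.61, 0.15 and 2.85 FPKM in the cKO-labelled libraries (adjusted p = 0.162, limma), and Wfdc21 at 4.17 to 12.41 FPKM and at 23.64, 0.67, 2.3, 0.62 and 1.74 FPKM (adjusted p = 0.209, limma). Summed over the list, the level was 117 to 211 FPKM in WT and 130, 12.5, 50.5, 8.58 and 47.1 FPKM in cKO 1 to 5, with the 5 libraries ranked as for most members. Ly6g, a defining surface marker of mature neutrophils and a target of the depletion, was at most at 1.32 FPKM, in cKO 3, and at 0 in cKO 2, 4 and 5. Itgam, for CD11b, was at 2.62 to 3.94 FPKM in WT and at 1.84, 0.14, 0.99, 0.05 and 0.81 FPKM in the cKO-labelled libraries. Itgam ranked the cKO-labelled libraries as most members did, while Ly6g was low in all of them and highest in cKO 3. The part of these 2 genes in the result was not tested.

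Markers of most other blood lineages moved with the label. All 8 monocyte markers were called lower, with a median log2 fold change of -4.59 and a summed level of 384 to 612 FPKM in WT and 20.4, 9.17, 72.8, 3.23 and 128.5 FPKM in the cKO-labelled libraries. Called lower were also 6 of 6 megakaryocyte markers (median -2.24), 7 of 7 of eosinophils, mast cells and basophils (-1.81), 3 of 4 tested of B cells (-2.49) and 3 of 6 of T and NK cells (-1.13). The T-cell genes Trbc2, Cd3g and Cd3e were not called, with log2 fold changes of -0.63, 0.29 and 0.53. The erythroid markers had 5 of 8 called higher and 0 lower, with a median of 1.63 and a summed level of 394 to 1250 FPKM in WT and 1609 to 2736 FPKM in the cKO-labelled libraries. Neither the erythroid nor the monocyte sum ranked the libraries as the members did, although cKO 1 was the highest for the erythroid sum and cKO 4 the lowest for the monocyte sum. The part of these shifts in the members' levels was not tested. Of the depletion targets, Ptprc and Itgam were called lower and Ly6g was not called.

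The 8 other genes whose profile over the 10 libraries was nearest to the mean profile of the members were Slfn4, Cd177, Usp18, Gm48420, Lrg1, Rtp4, Xaf1 and Cd33, in that order. Likeness was the root mean square distance of the centred log2(FPKM + 0.1) values, taken over 12343 genes whose mean reached 1 FPKM, with a median distance of 1.502. Slfn4, a schlafen gene of myeloid cells, was nearest at 0.43. It was at 0.86 to 1.11 FPKM in WT and at 9.28, 0.18, 1.9, 0.02 and 0.4 FPKM in the cKO-labelled libraries. Slfn4, Usp18, Rtp4 and Xaf1 are known as interferon-inducible genes, and Lrg1 encodes a protein of neutrophil granules. Rtp4 was at 2.06 to 6.13 FPKM in WT and at 23.09, 1.28, 14.85, 0.25 and 1.15 FPKM in the cKO-labelled libraries, and Usp18 at 3.1 to 4.93 FPKM and at 8.78, 1.19, 8.26, 0.91 and 1.67 FPKM. None of the 8 was called between the groups. Since they were picked for likeness to members that were not called, this is no separate result. Among the members themselves, Retnlg (0.35) and S100a9 (0.46) were nearest to their mean profile and Mmp8 (1.35) and Chil3 (1.603) farthest, with 9458 other genes nearer than Chil3.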

How the data were processed

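RNA-seq was done on Lin- bone marrow cells in 10 libraries, 5 of each genotype, grouped by their titles. The authors trimmed paired-end reads, aligned them to GRCm39 and deposited a table of genes by libraries in FPKM with 2 decimals. The submitters' processing notes name cutadapt 1.9.1, HISAT2 2.0.1 and HTSeq 0.6.1. The annotation and gene lengths behind the FPKM are not given in the sources used here.

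FPKM are not counts, so limma 3.58.1 with an intensity trend (R 4.3.3) was run on log2(FPKM + 0.1), two-sided, over the 18742 genes whose mean reached 0.1 FPKM, adjusted by Benjamini-Hochberg. A call needed a change of 2-fold or more and an adjusted p under 0.05. This scale understates changes of low genes. Permutation tests used Python 3.11.15 and scipy 1.17.1. Gene positions come from GENCODE M39 (54749 of 55359 identifiers matched), promoter sequences from RefSeq.

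Depth was read from single-transcript genes of at most 1200 bases, where 96.1% to 96.5% of low values came out whole within 0.2 of a fragment. Floors cover counting error only. Fragment numbers of single genes are approximate. No 2 libraries of a group were alike within sampling noise (chi-square per degree of freedom at least 3.25).

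The members and the lists (other secondary and tertiary granule genes, regulators, primary granules, late neutrophils, paralogs, depletion targets, monocytes, erythroid cells, megakaryocytes, eosinophils with mast cells and basophils, B cells, T and NK cells) were chosen with earlier results of these data known. Of 8 paralogs, 2 were tested, of which Trf was called lower (log2 fold change -2.84) and Mmp13 was not. Chil1 and Vpreb1 were not matched by symbol, and some genes of the lists are not reported here by name. Named were the members, Dhx9, Xist, up to 6 genes of a list in order of mean FPKM and the 8 genes nearest in profile. Values of other list genes, among them Csf1r, Irf8, Itgam, Ly6g, Cd177 and Cebpe where they fell outside that order, were chosen after they were seen. Alternatives were other pseudocounts, filters and scalings, no trend, a replicate block, adjusted p alone, Xist as a covariate or a limit, and each library left out. The limma step was tested on simulated data.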

Additional observations from a re-analysis of the deposited data

Results flagged for a closer look

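In 5 of 28 groups of 5 libraries, each a member, a sum or a ratio within one label, Dixon's test set 1 library apart from the remaining 4, and about 1.4 such groups would be set apart by chance. These are FPKM values, which are skewed, and on the log2(FPKM + 0.1) scale of the tests, a check added after seeing the data, 0 of 20 groups of members were set apart. All 5 groups set apart in FPKM were so through library cKO 1, and genes of the same cells are not separate events. Ngp was at 317.58 FPKM in it against 2.41 to 66.44 FPKM in the other libraries labelled cKO, and Lcn2 at 42.56 against 1.56 to 13.37 FPKM. S100a8 was at 442.9 FPKM against 2.51 to 79.19 FPKM, and S100a9 at 894.75 against 7.57 to 157.68 FPKM. The share of all FPKM in the 10 members was 0.608% in it against 0.00645% to 0.152%.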

How the results depend on the processing

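Under 22 alternatives to the test across all genes, 10 of them leaving out 1 library, no member was called higher. The number called lower was 0 to 1 with each library left out, and 1 with a pseudocount of 1. In each case it was Mmp8 (adjusted p = 0.0326 with that pseudocount, limma, and 0.0324 to 0.343 over all alternatives). The sizes of the members' fold changes moved with single libraries, and their signs held except for Retnlg, at 0.072 with a pseudocount of 1, 0.12 with quantile normalization and -0.90 to 0.62 with each library left out, and S100a9, at -1.16 to 0.55. Over all genes, 356 were called higher and 1486 lower with a pseudocount of 1, and 462 and 1827 with a mean of at least 1 FPKM. On adjusted p alone the counts were 3138 and 5300. Quantile normalization called 1581 higher and moved the median of all genes from -0.11 to 0.10, and libraries with Xist at most 1 FPKM alone gave 536. Leaving out 1 library gave 762 to 948 higher and 2892 to 3268 lower. The cause of these shifts was not tested.

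The ratios among libraries with Xist at most 1 FPKM, an alternative chosen after seeing the data, were -0.62 for S100a8 to S100a9 and -2.20 for Mmp8 to Mmp9 (exact permutation, adjusted p = 0.286 for both) and 0.20 for Camp to Ngp. With 2 WT libraries left, p cannot pass 0.05. With the replicate number as a block, 0 members were called, Mmp8 had an adjusted p of 0.0501 and Chil3 of 0.0513 (limma), and 857 genes were higher and 3107 lower. Same-numbered libraries correlated at -0.010 to 0.117 and 3 of 5 best with their own number. Whether the numbers pair the samples cannot be told from such weak correlations. Depth limits Mmp8 in library cKO 4, with about 1 fragment, and Retnlg there, with about 5.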
